A study of Homo sapiens with 6 samples.

Results

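The genes described here are 32 genes that make, sense, take up, move and export cholesterol. They were chosen by gene symbol from a list of pathway members, a list drawn up with earlier results of these data known, and all 32 were found among the 14803 genes of the table and were tested. RNA was sequenced 24 h after MCF-12A cells, an immortal and non-tumorigenic human mammary epithelial line without estrogen receptor, received either the medium-chain fatty acid octanoic acid (OA), given as sodium octanoate in phosphate-buffered saline, or that buffer alone (vehicle). Each group held 3 libraries, both groups were grown in the same complete mammary epithelial medium, and the model is 1 cell line. The labels do not tie the libraries to separate cultures, so p-values speak only to how far these libraries vary, possibly for technical reasons. Library totals were 43049972 to 59935521 counts in vehicle and 47508208 to 49585010 in OA, and the members took 0.394% to 0.419% of the counts of a library.

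Cells build cholesterol from acetyl-CoA. The early enzymes of the route make mevalonate and from it farnesyl diphosphate, which also feeds dolichol, ubiquinone and protein prenylation, and the later enzymes turn it into squalene, lanosterol and cholesterol. When sterols in the endoplasmic reticulum are low, the chaperone SCAP carries the SREBP transcription factors to the Golgi for cleavage, and the released fragments switch on synthesis and uptake genes. When sterols are high, the INSIG proteins hold SCAP back, oxysterols activate the LXR nuclear receptors, and LXR switches on the exporters ABCA1 and ABCG1.

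The synthesis enzymes and the other cholesterol genes moved in different proportions. Of the 18 synthesis enzymes 13 fell in OA (72.2%), 2 rose and 3 did not pass the test, with a median log2 fold change of -0.82. Among all 14785 genes tested 41.1% fell and 43.3% rose, with a median of 0.034. Abundant genes fell more than others, with a median of -0.70 in the highest decile of level in vehicle. Against genes of like level, as described below, 5 of 7 early (mevalonate) enzymes were lower. Of the 11 later (sterol branch) enzymes 5 were lower and 6 higher on that measure. Of the 14 regulators, transporters and efflux genes 8 rose (57.1%), 4 fell and 2 did not pass, with a median of 0.30. Over all 32 members 27 passed (84.4%, against 84.5% of all genes), so the share that changed was that of the transcriptome, and 17 fell (53.1%) while 10 rose (31.2%). Changes of more than 2-fold were lower for 7 members, each of them a synthesis enzyme, and higher for TM7SF2, ABCA1 and ABCG1. Such changes were lower for 12.3% of all genes and higher for 22.3%. The 3 OA libraries lay outside the range of the 3 vehicle libraries for 27 of the 32 members, against 88.8% of all genes.

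The test was edgeR's two-sided quasi-likelihood test at a false discovery rate of 0.01, adjusted by Benjamini and Hochberg over all genes tested, and levels are CPM, counts divided by the TMM-scaled library size. Scaling by RLE, upper quartile or library totals alone put the median of all genes at 0.017, 0.26 or 0.32, while the log2 fold change of each member relative to that median differed by at most 0.000525 between the 4 scalings. Members near 0 therefore changed sign or call with the scaling, as given beside each. With upper quartile scaling 14 members were higher and 14 lower (5 and 12 of the synthesis enzymes), among 7857 higher and 4687 lower of all genes, and with library totals alone 15 and 12 (5 and 11 of the synthesis enzymes), among 8223 and 4341. In bulk RNA, fewer cells of a type and less RNA per cell cannot be told apart.

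**Figure D1:**
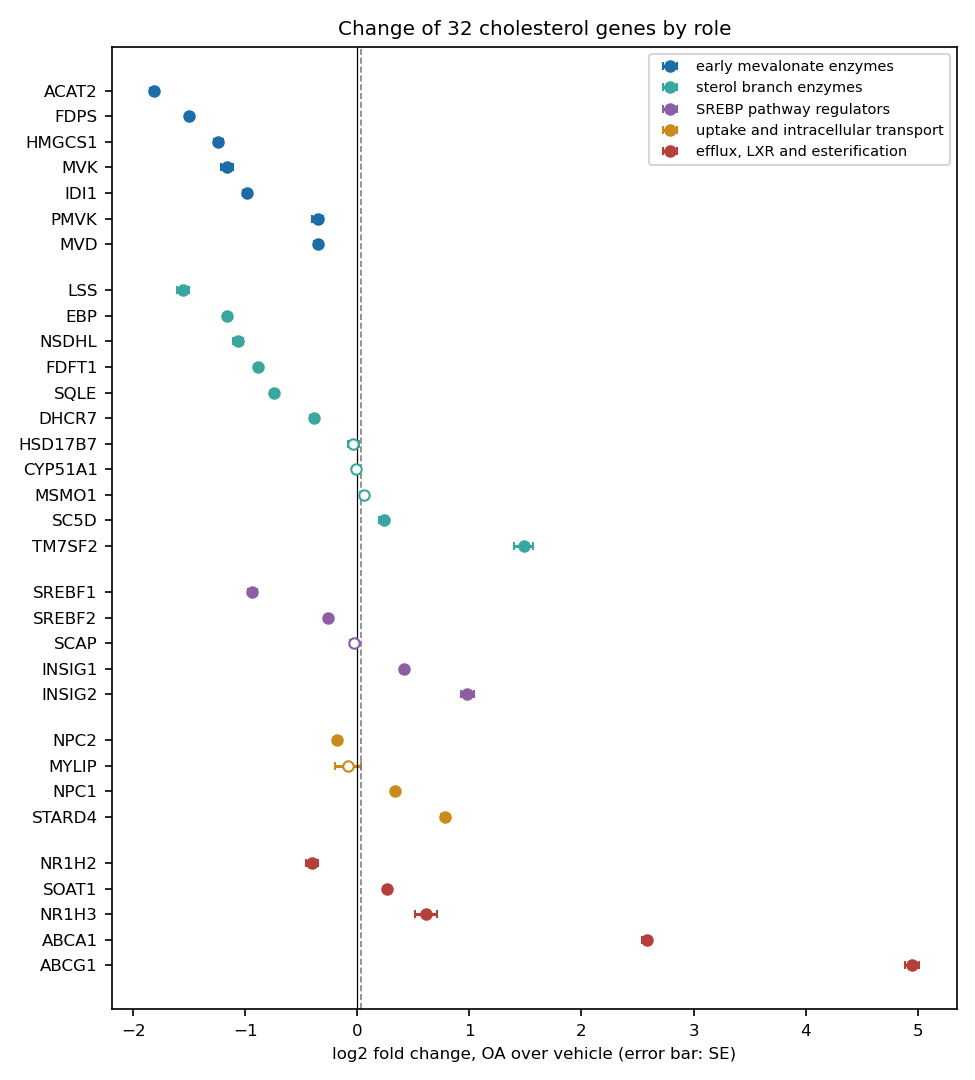
Log2 fold change (OA over vehicle) of each of the 32 members, grouped by role. Bars are 1 SE, derived from the F statistic of the edgeR test. Open circles are genes that did not pass the test, and the dashed line is the median of all genes. The mevalonate enzymes lie left of 0, ABCG1 lies farthest to the right at 4.95, and with upper quartile scaling or library totals alone CYP51A1, HSD17B7, SCAP, MYLIP and NPC2 move to the right of 0, as does SREBF2 with library totals alone.

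The line's labels were checked against marker genes. Of 6 basal mammary markers all 6 were detected, with summed levels of 7614 to 7931 CPM in vehicle against 4653 to 4902 CPM in OA, and 4 of the 6 fell (KRT5 -1.89, KRT14 -2.22, TP63 -1.46 and ITGB4 -0.61 on the log2 scale) while KRT17 and CDH3 rose (0.60 and 0.099). Of 5 pan-epithelial markers 4 were tested, and KRT19 was removed by the count filter. The 4 tested summed to 792 to 806 CPM in vehicle against 777 to 780 CPM in OA. This near-level sum hid opposite changes, since EPCAM and CDH1 rose (log2 0.92 and 0.76) while KRT8 and KRT18 fell (-0.23 and -0.45). Of 12 hepatocyte markers 8 were tested and 8 rose, against 43.3% of all genes. Markers almost absent in vehicle, such as FGG and APOA1 (means of 0.115 and 0.0893 CPM), could pass the count filter through OA libraries. The filter therefore favours rises in this count. The marker sums in CPM were 6.37, 10.5 and 8.98 for vehicle libraries and 12.2, 27.9 and 79.1 for OA libraries, so that OA replicate 3 stood apart. The sums of OA replicates 1 and 2 were also above those of every vehicle library, but that of OA replicate 1 was mostly SERPINA1. SERPINA1 had 10.7 CPM there against 5.83 to 6.71 CPM in vehicle. ALB had 0.590 CPM in OA replicate 1 against 0.241, 2.42 and 1.53 CPM in vehicle, and HP had 0 CPM in OA replicate 1. The groups did not overlap for 3 of the 8 hepatocyte markers (37.5%, against 88.8% of all genes). No member's call changed when any single library was left out. Fibroblast markers (4 tested of 7) summed to 61.4 to 76.5 CPM in vehicle against 105 to 108 CPM in OA, leukocyte markers (2 tested of 6) to 22.5 to 24.8 and 60.5 to 63.0 CPM, endothelial markers (2 of 4) to 5.48 to 6.76 and 4.19 to 4.79 CPM, and adipocyte markers (2 of 5) to 1.19 to 1.35 and 1.62 to 1.95 CPM. Within the endothelial sum PECAM1 fell (log2 -0.87) and KDR rose (1.69). Most of the leukocyte sum was CD68 (means of 21.0 CPM in vehicle and 56.0 CPM in OA), and CD14 had 2.69 and 5.57 CPM. In the fibroblast sum DCN did not pass (45.9 and 45.6 CPM), while COL1A1 rose from 20.5 to 55.9 CPM and PDGFRA and PDGFRB also rose. In the adipocyte sum PLIN1 rose from 0.0147 to 0.571 CPM, and FABP4 did not pass (1.26 and 1.20 CPM). The part of these marker differences in the cholesterol results was not tested.

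The regulators bind short elements in promoters, so the promoter windows of the members (RefSeq, GRCh38.p14, 250 bases before to 50 bases after the start) were searched on both strands. Windows were found for 28 of the 32 members, and ABCG1, ACAT2, FDFT1 and SQLE were not searched. The classic sterol regulatory element, whose 10 letters are the first capitals of the SREBF2 sequence, occurred in SREBF2 alone among the members and in 0.0456% of all 35116 windows. Its core CACNCCAC, which the full element contains, occurred in ABCA1, IDI1, INSIG1, SC5D and SREBF2, or 17.9% of members against 7.05% of all genes with a window. The E-box CACGTG occurred in ABCA1, INSIG1, LSS, SC5D and SCAP, also 17.9%, against 8.77%. The CCAAT box, read by NF-Y, which works beside SREBP at many sterol genes, occurred in 20 members (71.4%) against 39.7% of genes. By role it was found in 5 of 6 mevalonate and 8 of 9 sterol branch enzymes, in 2 of 5 regulators, in 3 of 4 uptake and transport genes, and in 2 of 4 efflux genes. The LXR element, AGGTCA repeated after 4 bases of any kind, occurred in 0 members and 7 windows. A match shows only that the letters are present, and their absence says nothing of the factor's binding.

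The 7 stretches below show these letters beside members that fell, rose or set the pathway, each given 5′ to 3′ on the gene's strand with the matched letters in capitals. They are SREBF2 (chr22:41832946-41833028, plus strand), with the full element 125 to 134 bases before the start, INSIG1 (chr7:155297645-155297737, plus), ABCA1 (chr9:104928272-104928405, minus), HMGCS1 (chr5:43313483-43313592, minus), FDPS (chr1:155308665-155308773, plus), MVD (chr16:88663147-88663275, minus) and TM7SF2 (chr11:65111773-65111827, plus). ATTGG is the CCAAT box read on the other strand, and in INSIG1 the core is also read on the other strand.
SREBF2: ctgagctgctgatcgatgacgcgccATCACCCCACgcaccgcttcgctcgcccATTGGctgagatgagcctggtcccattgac
INSIG1: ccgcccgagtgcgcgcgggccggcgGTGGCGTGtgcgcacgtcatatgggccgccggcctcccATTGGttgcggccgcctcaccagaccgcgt
ABCA1: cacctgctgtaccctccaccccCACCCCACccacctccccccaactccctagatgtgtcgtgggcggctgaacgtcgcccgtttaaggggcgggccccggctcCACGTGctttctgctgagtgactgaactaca
HMGCS1: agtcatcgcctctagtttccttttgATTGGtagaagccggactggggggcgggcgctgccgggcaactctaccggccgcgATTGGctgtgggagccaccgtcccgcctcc
FDPS: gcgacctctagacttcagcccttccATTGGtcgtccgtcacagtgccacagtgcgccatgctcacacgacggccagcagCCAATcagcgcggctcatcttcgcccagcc
MVD: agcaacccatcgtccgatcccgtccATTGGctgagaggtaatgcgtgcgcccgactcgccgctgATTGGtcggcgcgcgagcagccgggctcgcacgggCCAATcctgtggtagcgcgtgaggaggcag
TM7SF2: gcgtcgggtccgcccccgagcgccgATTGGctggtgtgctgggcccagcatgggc

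The mevalonate enzymes fell together. All 7 passed the test as lower (against 41.1% of all genes), 4 by more than 2-fold (57.1%, against 12.3%). The median log2 fold change was -1.16. Their summed level per length was 550 ± 10.1 CPM per kilobase in vehicle and 232 ± 2.07 in OA (SD, n = 3), which is 0.422 of vehicle. ACAT2 (chromosome 6, 159761957 to 159779112, hg38), whose thiolase joins acetyl-CoA units at the start of the route, had 173, 174 and 179 CPM in vehicle against 51.1, 47.3 and 51.6 CPM in OA. The groups were far apart, with the OA mean at 0.285 of vehicle (log2 -1.81, SE 0.035, edgeR adjusted p = 5.86e-20). HMGCS1 (chromosome 5, 43287470 to 43313512), the synthase that makes HMG-CoA, had 304, 293 and 326 CPM in vehicle against 136, 127 and 128 CPM in OA. Every OA library was below every vehicle library, and the mean fell to 0.423 (log2 -1.24, SE 0.037). MVK, the kinase that acts on mevalonate, had 40.8, 39.2 and 37.9 CPM in vehicle against 16.2, 18.9 and 17.7 CPM in OA, a fall to 0.448.

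The next enzymes of the route changed by unequal amounts. PMVK and MVD, which carry phosphomevalonate on to isopentenyl diphosphate, fell to 0.782 and 0.784 (log2 -0.36 and -0.35), and PMVK lost its call with upper quartile scaling or library totals alone, MVD with library totals alone. IDI1, the isomerase of isopentenyl diphosphate, had 127, 130 and 138 CPM in vehicle against 68.0, 65.3 and 66.4 CPM in OA, a fall to 0.506 with no overlap of the groups. FDPS (chromosome 1, 155308748 to 155320666), which makes farnesyl diphosphate, was the most abundant member per length at 275 CPM per kilobase in vehicle. It had 460, 440 and 457 CPM in vehicle against 156, 160 and 163 CPM in OA, and the mean fell to 0.353 (log2 -1.50, SE 0.030, edgeR adjusted p = 6.44e-20).

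Some of these counts can include reads of other loci, since whether counting used strand is unknown. Of the exon bases of ACAT2, 23.8% are shared with TCP1 and 12.4% with SOD2 on the opposite strand. Both had more counts in all libraries, 139607 for TCP1 and 63856 for SOD2 against 32327 for ACAT2. Of the exon bases of FDPS, 28.9% are shared with RUSC1-AS1, which had 274 counts in all libraries against 88440 for FDPS. In GENCODE v44, 43.5% of the HMGCS1 exon bases lie opposite a long noncoding RNA. FDPS has 8 annotated pseudogenes and IDI1 has 3, where the exclusion of multi-mapped reads could lower counts.

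**Figure D2:**
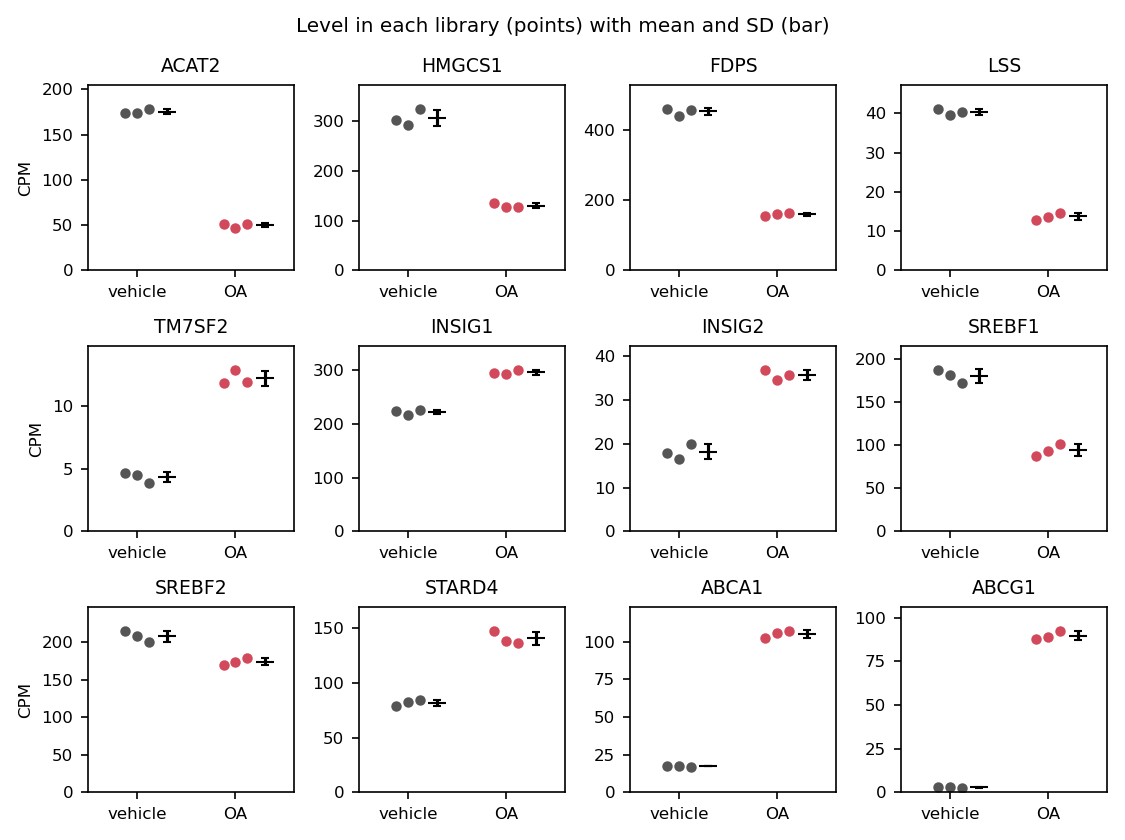
Level (CPM, linear axis from 0) of 12 members in each of the 6 libraries, with the mean and SD beside the points. ACAT2, HMGCS1, FDPS and LSS are lower in all 3 OA libraries, and TM7SF2, both INSIG genes, STARD4, ABCA1 and ABCG1 are higher. SREBF1 and SREBF2 are lower in all 3 OA libraries here, and SREBF2 turned to 0.027 (log2) with library totals alone.

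The sterol branch was mixed. Of its 11 enzymes 6 fell (54.5%, against 41.1% of all genes), 2 rose (18.2%, against 43.3%) and CYP51A1, MSMO1 and HSD17B7 did not pass. The median was -0.39, and the summed level was 680 ± 8.87 CPM per kilobase in vehicle and 487 ± 4.20 in OA (0.717 of vehicle). LSS (chromosome 21, 46188446 to 46228824), which closes the ring system to give lanosterol, had 41.2, 39.6 and 40.4 CPM in vehicle against 12.9, 13.7 and 14.6 CPM in OA. Its mean fell to 0.340 (log2 -1.56, SE 0.050), the largest fall among the sterol branch members, and part of its exons are also placed on another contig of the assembly. EBP, the sterol isomerase, had 98.2, 99.0 and 99.8 CPM in vehicle against 43.9, 43.2 and 45.7 CPM in OA. The groups did not overlap and the mean fell to 0.447, while 55.7% of EBP exon bases are shared with a same-strand GENCODE locus. NSDHL, a dehydrogenase that helps to remove methyl groups from sterols, had 41.8, 42.4 and 43.9 CPM in vehicle against 20.1, 19.7 and 21.2 CPM in OA, a fall to 0.476.

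The steps at squalene fell less. FDFT1, the squalene synthase that commits farnesyl diphosphate to sterols, had 377, 365 and 370 CPM in vehicle against 195, 200 and 206 CPM in OA, a fall to 0.540. SQLE, the squalene epoxidase, had 597, 596 and 608 CPM in vehicle against 361, 357 and 357 CPM in OA, a fall to 0.597 (log2 -0.74, SE 0.026). DHCR7, the reductase of the last step in a route to cholesterol, fell to 0.765 (log2 -0.39).

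The remaining enzymes of the branch did not pass the test or rose. CYP51A1, the lanosterol demethylase, had means of 291 and 289 CPM (log2 -0.0096, SE 0.029, edgeR adjusted p = 0.756), MSMO1, the methylsterol oxidase, 204 and 212 CPM (0.055), and HSD17B7, a keto-sterol reductase, 25.1 and 24.4 CPM (-0.036). The vehicle and OA libraries of these 3 genes overlapped. With upper quartile scaling and library totals alone all 3 passed as higher, MSMO1 at 0.28 and 0.34, CYP51A1 at 0.22 and 0.28 and HSD17B7 at 0.19 and 0.25, so CYP51A1 and HSD17B7 changed sign. CYP51A1 was also above 0 with a filter of at least 1 CPM in 3 libraries (0.014) and without vehicle replicate 3 (0.013). Reads at CYP51A1 are uncertain, because 88.9% of its exon bases are shared with same-strand GENCODE loci and it has 3 pseudogenes, and HSD17B7 has 2. TM7SF2 (chromosome 11, 65111854 to 65116235), a sterol reductase, had 4.63, 4.52 and 3.85 CPM in vehicle against 11.8, 12.9 and 11.9 CPM in OA. It was low in every vehicle library and rose 2.81-fold (log2 1.48, SE 0.085, edgeR adjusted p = 1.42e-12). SC5D, a sterol desaturase, rose 1.17-fold (log2 0.23).

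TM7SF2 shares its reductase step with LBR, a nuclear envelope protein, and the balance of the pair moved. LBR fell from 203 ± 5.99 to 75.5 ± 1.48 CPM (log2 -1.42). The TM7SF2 to LBR ratio per length was 0.0529 in vehicle and 0.400 in OA, a shift of 2.92 on the log2 scale. Ratios of this kind do not depend on library scaling.

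Among the SREBP pathway regulators both INSIG genes rose and both SREBF genes fell. INSIG1 (chromosome 7, 155297772 to 155310235), itself an SREBP target whose protein retains SCAP, had 223, 217 and 225 CPM in vehicle against 294, 293 and 301 CPM in OA. All OA libraries were above all vehicle libraries, with a rise of 1.33-fold (log2 0.42, SE 0.028, edgeR adjusted p = 2.19e-11), so this SREBP target moved opposite to the mevalonate enzymes. INSIG2, its less abundant relative, had 17.9, 16.6 and 20.0 CPM in vehicle against 36.9, 34.6 and 35.7 CPM in OA, a rise of 1.97-fold (log2 0.98, SE 0.056). The INSIG1 to INSIG2 ratio per length went from 10.7 to 7.22 (log2 shift -0.56).

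SREBF1 (chromosome 17, 17811349 to 17837011), which encodes the SREBP-1 forms that drive fatty acid as well as sterol genes, had 188, 181 and 172 CPM in vehicle against 88.1, 93.5 and 101 CPM in OA. The groups were well apart and the mean fell to 0.523 (log2 -0.94, SE 0.042). SREBF2 (chromosome 22, 41833079 to 41907308), which encodes the SREBP that acts mainly on sterol genes, had 216, 209 and 201 CPM in vehicle against 170, 174 and 179 CPM in OA, a fall to 0.837 (log2 -0.26, edgeR adjusted p = 2.77e-07) that was -0.031 and no longer past the threshold with upper quartile scaling and 0.027 with library totals alone. The 2 genes were at nearly equal levels per length in vehicle (ratio 0.990) and at 0.618 in OA, a log2 shift of -0.68. SCAP had 107, 103 and 97.9 CPM in vehicle against 97.2, 99.5 and 105 CPM in OA, and the groups overlapped (log2 -0.030, edgeR adjusted p = 0.445), but it turned and passed as higher with upper quartile scaling (0.20) and library totals alone (0.26). The 5 regulators together had 172 ± 3.40 CPM per kilobase in vehicle and 178 ± 4.16 in OA.

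Uptake and intracellular transport genes were few and split. STARD4, which carries cholesterol between membranes, had 79.0, 82.5 and 84.0 CPM in vehicle against 148, 138 and 137 CPM in OA. The groups did not overlap and the mean rose 1.72-fold (log2 0.78, SE 0.036). NPC1 and NPC2 pass cholesterol out of the lysosome in turn. NPC1, the membrane protein, rose 1.26-fold to 323 ± 3.04 CPM (log2 0.33), while NPC2, the soluble carrier, fell to 0.881 (log2 -0.18, but 0.045 and not past the threshold with upper quartile scaling, and 0.10 and past it as higher with library totals alone), and the NPC1 to NPC2 ratio per length went from 0.405 to 0.578. MYLIP, an LXR target whose ubiquitin ligase degrades lipoprotein receptors, had 3.61 to 4.07 CPM in vehicle against 3.14 to 4.11 CPM in OA (log2 -0.084, SE 0.117, edgeR adjusted p = 0.503), and it turned to 0.019 without OA replicate 2 and to 0.14 and 0.20 with upper quartile scaling and library totals alone, without passing. The summed level of the 4 genes was 201 ± 1.04 CPM per kilobase in vehicle and 210 ± 0.673 in OA.

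The 2 exporters were the members that rose most. ABCG1 (chromosome 21, 42199689 to 42297244), which passes cholesterol to high-density lipoprotein, had 2.98, 3.11 and 2.55 CPM in vehicle against 87.9, 88.8 and 92.5 CPM in OA. It was the lowest of the members in vehicle and rose 31.1-fold (log2 4.95, SE 0.058, edgeR adjusted p = 8.98e-23). ABCA1 (chromosome 9, 104781003 to 104928246), which loads cholesterol onto lipid-poor apolipoprotein, had 17.7, 17.7 and 17.1 CPM in vehicle against 102, 106 and 107 CPM in OA, a rise of 6.00-fold (log2 2.58, SE 0.039, edgeR adjusted p = 2.20e-21). The order of the exporters turned over, since the ABCA1 to ABCG1 ratio per length was 2.09 in vehicle and 0.402 in OA (log2 shift -2.38).

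The receptors and the esterifying enzyme changed less. NR1H3, which encodes LXR alpha and is itself an LXR target in human cells, had 3.39, 3.46 and 3.52 CPM in vehicle against 5.55, 5.09 and 5.19 CPM in OA, a rise of 1.53-fold (log2 0.61, SE 0.097) on 1328 counts in all 6 libraries. The groups did not overlap, and 7.43% of its exon bases are shared with ACP2 on the opposite strand. NR1H2, which encodes LXR beta, fell to 0.755 (log2 -0.41) and lost its call with library totals alone. The NR1H3 to NR1H2 ratio per length went from 0.0613 to 0.124 (log2 shift 1.01), with LXR beta transcripts still the more abundant. SOAT1, which esterifies cholesterol for storage, rose 1.20-fold (log2 0.26). The summed level of these 5 genes was 46.3 ± 1.77 CPM per kilobase in vehicle and 77.2 ± 1.63 in OA, 1.67 times vehicle.

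**Figure D3:**
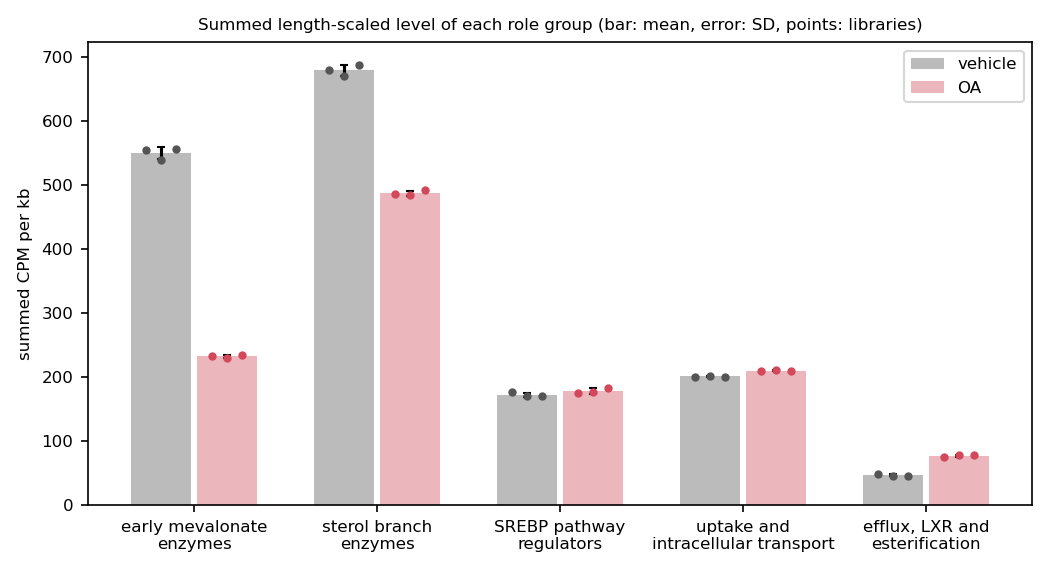
Summed level (CPM per kilobase) of each of the 5 role groups, with points for the 6 libraries and mean with SD. The mevalonate enzymes are at 0.422 of vehicle and the sterol branch at 0.717, while the efflux group is at 1.67 times vehicle.

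For the 6 pairs of related genes, the shifts of the log2 ratio were tested by a two-sided exact permutation test over the 6 libraries. Each exact permutation test gave p = 0.10, which is the smallest value that 3 against 3 libraries allow, and 0.10 after Benjamini-Hochberg adjustment over the 6 pairs, so none could pass 0.05. In each pair the 3 OA ratios lay outside the range of the 3 vehicle ratios. The shift was largest for TM7SF2 to LBR (2.92), followed by ABCA1 to ABCG1 (-2.38).

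**Figure D4:**
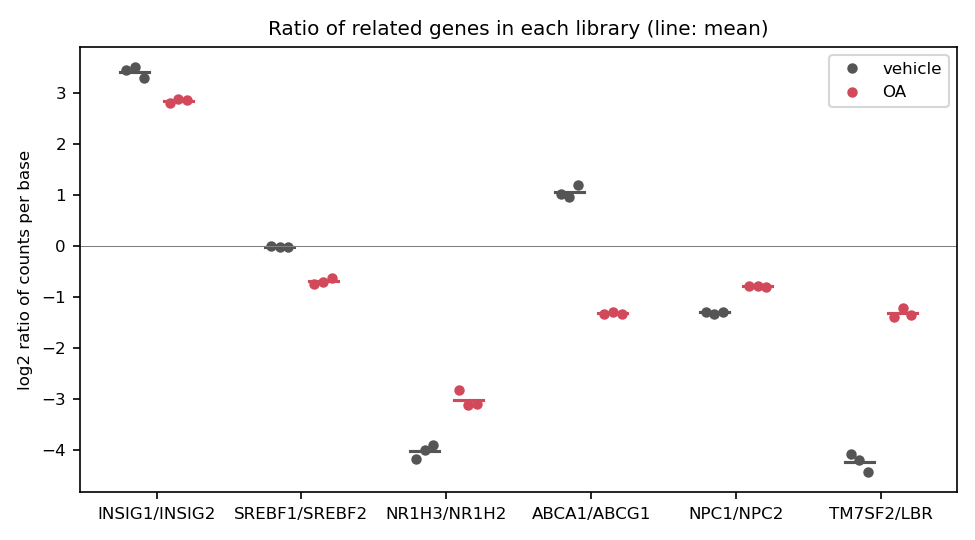
Log2 ratio of the levels per length of 6 pairs of related genes in each library. The 3 OA points lie apart from the 3 vehicle points in all 6 pairs, and ABCA1 to ABCG1 goes from 1.07 to -1.32 and TM7SF2 to LBR from -4.24 to -1.32.

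Among the genes tested, change in OA followed the level in vehicle, and the members are mostly abundant genes. Genes were ranked by CPM per kilobase in vehicle replicate 1, and OA was set against the other vehicle libraries. The median log2 change ran from 2.76 in the lowest decile to -0.70 in the highest, and 12 of the 32 members were in the highest decile and 6 in the next. Genes almost absent in vehicle could pass the filter only through counts in OA, which by itself raises the median of the lowest deciles. The size of that part was not tested, and deciles 1 and 2 held 0 members. Against the median of their own decile, 5 of 7 mevalonate enzymes were lower (median difference -0.55), and in the sterol branch 5 were lower and 6 higher (0.14). Above it were 4 of 5 regulators (0.34), 3 of 4 uptake and transport genes (0.72) and 4 of 5 efflux genes (0.59). LSS differed from the median of its decile by -1.65 and ACAT2 by -1.12, while INSIG1 was 1.12, NPC1 1.03 and ABCG1 4.29 above. FDFT1 and SQLE, which fell in the test, were close to other genes of their level, at -0.17 and -0.047. TM7SF2 and ABCA1 were 1.19 and 1.90 above, and NR1H3 differed by -0.091.

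**Figure D5:**
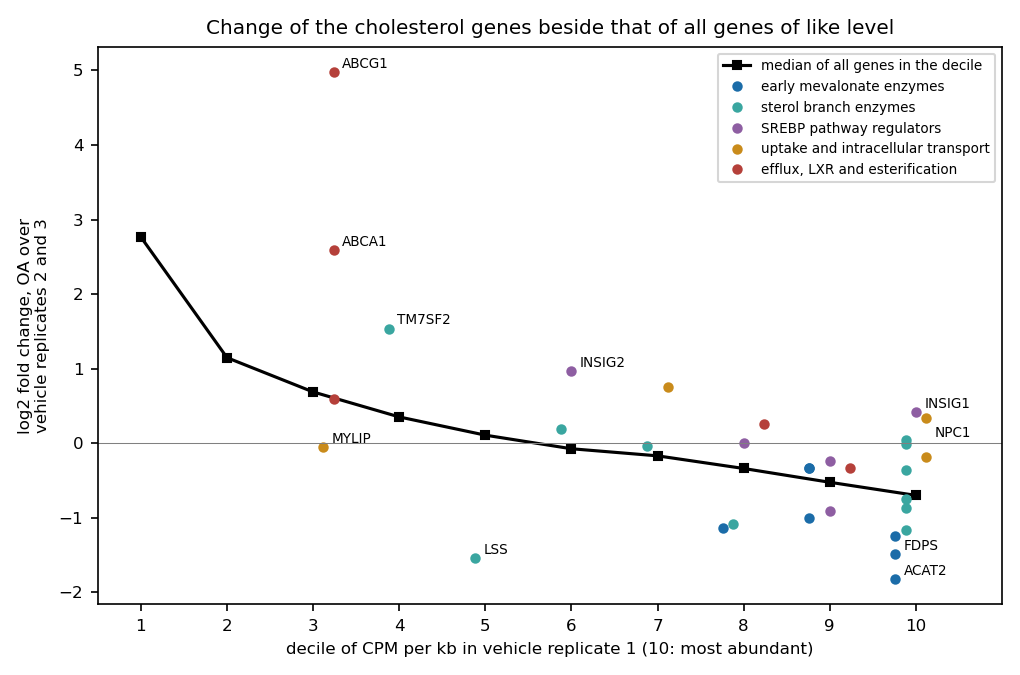
Log2 change in OA against the decile of genes by level in vehicle, with the line for the median of all genes and points for the 32 members. The line falls from 2.76 to -0.70, and ABCG1, ABCA1, INSIG1 and NPC1 sit above it while ACAT2 and LSS sit below. The filter on counts can raise the left end of the line.

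Related genes outside the 32 were read from lists of the same pathways, beside 41.1% lower and 43.3% higher among all genes tested. Of 9 other sterol-modifying enzymes 7 fell (77.8%) and 1 rose, with a median of -0.73. Of 16 isoprenoid branch enzymes 10 fell (62.5%) and 3 rose. Among them ZMPSTE24 and ICMT, which process prenylated proteins, fell by 1.14 and 1.05 on the log2 scale. Of 12 SREBP cleavage and degradation factors 8 fell (66.7%) and 4 rose, and UBE2G2 and RNF145, parts of the ubiquitin machinery of the endoplasmic reticulum, fell by 1.09 and 0.92 on that scale.

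Of 12 lipogenic SREBP-1 targets 7 fell (58.3%) and 3 rose, with a median of -0.34, and ACLY and FADS2, of acetyl-CoA supply and fatty acid desaturation, fell by 1.55 and 1.42 on the log2 scale. LXR targets other than the members were split, with 4 of 8 higher (near the 43.3% of all genes), 2 lower and a median of 0.36. TTC39B, described in mice as promoting turnover of LXR protein, rose from 12.8 ± 1.47 to 61.3 ± 1.41 CPM (log2 2.27). Of 19 further uptake and transfer proteins 11 rose (57.9%, against 43.3% of all genes) and 6 fell (31.6%, against 41.1%). CAV1, the coat protein of caveolae, fell from 1891 ± 24.6 to 243 ± 26.2 CPM (log2 -2.96), and LRP8, a lipoprotein receptor, fell by 1.86 on the log2 scale. Both other ester enzymes were lower. NCEH1, a cholesterol ester hydrolase, had a log2 fold change of -0.46, and LCAT, which forms esters on lipoproteins, a value of -0.32 that lost its call without vehicle replicate 1 (-0.33), vehicle replicate 2 (-0.30) or OA replicate 2 (-0.21), with upper quartile scaling (-0.094) and with library totals alone (-0.036).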

How the data were processed

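RNA of MCF-12A cells (24 h, OA or vehicle, 3 libraries each, grouped by the treatment label) was sequenced after KAPA RNA HyperPrep library preparation. Per the labels and the study's methods, the reads were aligned by the authors to hg38 (STAR 2.5), who left out multi-mapped reads, and who deposited raw counts per gene from featureCounts 1.5.1, with gene length and no normalization. Other tools in the submitters' processing notes are edgeR 3.30.3, Subread, MultiQC 0.11.5 and FastQC. Sources differ on read length and layout, and strand setting and dose are not given in the sources used. The lowest gene total over the 6 libraries was 14, and genes with fewer counts were not analysed here.

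Counts were fitted in R 4.3.3 with edgeR 4.0.16 (TMM, filterByExpr, which removed 18 genes, quasi-likelihood test, no covariate). The likelihood ratio test of the study was an alternative, as were DESeq2 1.42.0 and limma-voom 3.58.1, other scalings, filters and thresholds, a replicate block and omission of each library. Steps were tested on simulated data. Log2 fold changes had a median SE of 0.053, or 0.036 for the members. Levels per length divide CPM by the authors' gene length. Pairs of libraries of a group differed beyond counting noise (lowest chi-square per df 2.78), so none was counted as a duplicate. The members and lists were chosen with earlier results of these data known, so their directions are not independent evidence. The text names all 32 members, LBR as the partner of TM7SF2, and of each other list the 2 genes lowest in p that passed the threshold with 1 CPM or more on average, with values per library for members changed more than 1.5-fold and for the SREBP regulators. The cell type markers given by name were named after their values were seen. Some genes that this rule takes are not reported.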

Additional observations from a re-analysis of the deposited data

How the results depend on the processing

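The calls of the 32 members were the same with RLE scaling, no filter, the likelihood ratio test, DESeq2, limma-voom, a false discovery rate of 0.05 and without any 1 library. Depth was ample for most members, and MYLIP and NR1H3 had the fewest counts. RLE scaling and DESeq2 put the median of all genes at 0.017 and 0.018 and that of the synthesis enzymes at -0.83, and a filter of at least 1 CPM in 3 libraries put them at 0.024 and -0.79 and CYP51A1 at 0.014. Upper quartile scaling gave medians of 0.26 for all genes, -0.93 for the mevalonate enzymes, -0.16 for the sterol branch, 0.20 for the SREBP regulators, 0.35 for uptake and transport, 0.84 for efflux, 0.0069 for all members and -0.59 for the synthesis enzymes. Library totals alone gave 0.32, -0.88, -0.10, 0.26, 0.41, 0.90, 0.065 and -0.53 in that order. Under both, 5 synthesis enzymes were higher rather than 2. CYP51A1, HSD17B7, SCAP, MYLIP and NPC2 were then at 0.22, 0.19, 0.20, 0.14 and 0.045 with upper quartile scaling and at 0.28, 0.25, 0.26, 0.20 and 0.10 with library totals, where SREBF2 was at 0.027. These 2 scalings shift all genes together, by the difference between the medians of all genes. Of the isoprenoid branch enzymes 6 and 7 were higher under them rather than 3, of the other sterol-modifying enzymes 2 rather than 1, and with library totals 5 rather than 8 of the SREBP cleavage and degradation factors were lower. For other LXR targets 1 rather than 2, and for ester enzymes 1 rather than 2, were lower under both.

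Counting only changes of more than 2-fold left 3300 genes higher and 1815 lower, 3 members higher and 7 lower, and 1 synthesis enzyme higher and 7 lower. The isoprenoid branch then had 5 lower rather than 10, the sterol-modifying enzymes 4 rather than 7, the SREBP-1 targets 4 rather than 7, and the cleavage factors 1 rather than 8, with 2 LXR targets and 3 uptake and transfer proteins higher. Without length, summed levels in OA were 0.428, 0.958, 1.24 and 1.94 of vehicle for the mevalonate enzymes, SREBP regulators, uptake and transport, and efflux. With 1 library left out, the median of all genes ran from 0.025 to 0.042 and that of the synthesis enzymes from -0.84 to -0.81, and CYP51A1 ran from -0.027 to 0.013 and MYLIP from -0.18 to 0.019.

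Same-numbered libraries did not deviate together (correlations of 0.08, 0.01 and -0.03, and 3 of 6 libraries correlated best with their own number), so the numbers were not treated as a pairing. With the replicate number as a block, 6294 genes were higher and 5983 lower, the members stayed at 10 higher and 17 lower, and the block changed no call of a member.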
